A study of Mus musculus with 48 samples.

Results

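Joining of the Jκ1 signal end was measured in Ku70-/- vAbl cells before and during G0-G1 arrest, in 3 libraries from cycling cells and 3 from arrested cells, chosen by the labels for genotype, bait and treatment among the 48 libraries of the series. vAbl cells are mouse progenitor B cells transformed by the Abelson kinase. STI-571 blocks that kinase, arrests the cells and lets them express RAG1/2. The arrested cells had received STI-571 at 3 μM for 96 h with DMSO, the solvent of the inhibitors used elsewhere in the study, and the cycling cells carry the label Cycling and no drug. Both groups lack Ku70 and come from 1 line, a single Ku70-deficient clone, so a difference between them is one of treatment within that clone. WT vAbl libraries with the same bait enter in 2 places. Cycling cells and cells given STI-571 with DMSO, 3 libraries each, are the comparison at the end, and the Vκ break sites were placed from 9 libraries of WT cells given STI-571 at 3 μM for 96 h, 3 with DMSO, 3 with L67 at 5 μM and 3 with L82-G17 at 25 μM, which are DNA ligase inhibitors. The labels do not say whether the 3 libraries of a group came from separate cultures, while the study states that its experiments were biologically repeated 3 times. The p-values measure the spread between these libraries only.

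RAG1/2 cuts a Vκ and a Jκ segment together, beside their recombination signal sequences (RSS), and leaves a hairpin-sealed coding end (CE) and a blunt signal end (SE) at each cut. Nonhomologous end joining (NHEJ) normally pairs signal with signal and coding with coding. Ku70, with Ku80, holds broken ends at the start of NHEJ, and without it alternative end joining (A-EJ) makes the joints, which are often trimmed and can pair a signal with a coding end (a hybrid joint). HTGTS-JoinT-seq reads outward from a fixed bait end, here the signal end left at Jκ1, and each junction gives the position and strand of the prey joined to it.

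The bait and its possible partners can be read from their signal sequences, which are shown because every joint below starts at the first of them. Each is written along the plus strand of NCBIM37 (the assembly of mm9) with the heptamer in capitals. RAG1/2 cuts at the coding border of the heptamer. At a Jκ segment the coding end lies to the right of this border and the signal end to its left, and the intronic signal lies the other way round. RS is the recombining element downstream of Cκ that can delete Cκ.
Jκ1, chr6:70672517-70672555: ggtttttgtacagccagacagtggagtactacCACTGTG
Jκ2, chr6:70672871-70672909: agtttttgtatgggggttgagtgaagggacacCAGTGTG
Jκ4, chr6:70673503-70673541: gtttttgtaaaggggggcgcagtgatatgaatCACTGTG
Jκ5, chr6:70673841-70673879: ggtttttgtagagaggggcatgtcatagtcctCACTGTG
intronic RSS, chr6:70675008-70675035: CACAGTGataggaacagagccactaatc
RS, chr6:70701736-70701774: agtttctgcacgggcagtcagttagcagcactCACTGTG

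Each library held 500000 read pairs. The cycling libraries yielded 13726, 8294 and 10884 junctions, and the arrested libraries 176513, 188052 and 192122. The authors kept duplicate reads, so many listed junctions are copies of 1 joint. A joint was taken as distinct by its prey position and strand, its bait end and its overlap or gap. In the Vκ region there were 516, 249 and 530 distinct joints in the cycling libraries, and 965, 13710 and 10973 in the arrested ones. Arrested replicate 1 stands apart, with 147 junctions per distinct Vκ joint on average against 10.6 and 13.7 in replicates 2 and 3 and 9.01 to 11.7 in the cycling libraries. It is also not among the signal end libraries that the study lists, while its labels put it in the same group as the other 2. Its 10 commonest Vκ joints made up 24.8% of its Vκ junctions, against 1.22% and 1.47% in the other arrested libraries. Its median Vκ joint had 1 copy, against 4 in replicates 2 and 3 and 3 to 6 in the cycling libraries. Many of its distinct joints were thus listed once. In cycling replicate 2 the 10 commonest made up 39.4%, against 11.7% and 15.8% in replicates 1 and 3. The same joint can be listed in cycling and arrested libraries: 34.9%, 38.2% and 37.2% of the distinct Vκ joints of the cycling libraries were also in an arrested library, and these carried 48.6%, 52.7% and 51.3% of the cycling Vκ junctions. In the other direction the shares of distinct joints were 1.04%, 1.95% and 2.10%. Of the cycling distinct joints, 0.969%, 1.20% and 0.755% were in arrested replicate 1, and 22.6% to 28.5% in either of replicates 2 and 3. Any 2 cycling libraries shared 7.36% to 15.7% of theirs. Arrested replicates 2 and 3 shared 16.4% and 20.5% of theirs with each other. Whether shared joints arose separately or passed between cells or libraries was not tested. Leaving shared joints out removes far more of the cycling lists than of the deeper arrested ones, so it is no neutral check. How far this alone moves a value was not tested. Values are therefore given over all listed junctions, with arrested replicate 1 left out in turn, and with distinct joints or joints of a single treatment where these change the result.

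With 3 libraries a group, the exact two-sided permutation test can reach no p below 0.1, which it gives where the groups do not overlap. Such a difference is called here, and over the 35 measures tested its Benjamini-Hochberg adjusted p was 0.146, so none passed 0.05. The groups did not overlap in 24 of the 35 measures (68.6%), and each count below is to be read against that share. Exact Clopper-Pearson 95% intervals over distinct joints reached at most 3.44 percentage points to either side for the share in the Vκ region and 6.20 points for the strand split within it. They cover counting error only.

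Under arrest the bait was joined mainly to the Vκ segments, and in cycling cells more often to ends near Jκ1 and downstream of it. The Vκ region, taken as 67.5 to 70.66 Mb of chromosome 6, received 36.8%, 35.2% and 43.9% of all junctions in cycling cells and 80.6%, 77.5% and 78.5% in arrested cells. All 3 arrested libraries lay above all cycling ones, at 78.9% ± 1.59 against 38.6% ± 4.61 (SD, n = 3 each), a difference of 40.2 points (39.4 without arrested replicate 1). Vκ break sites were placed at 138 positions with CAC beside the break, 63 in deletional and 75 in inversional orientation to Jκ1, and a junction within 200 bp was given to the nearest. The heptamer was CACAGTG at 111 of them, and whether each of the other 27 has a full RSS was not tested. V-J efficiency, the junctions at these sites as a percentage of the read pairs, was 0.805%, 0.397% and 0.805% in cycling cells and 28.4%, 28.5% and 29.6% in arrested cells. The group means were 0.669% ± 0.235 and 28.8% ± 0.695 (SD, n = 3 each), a ratio of 43.1, and the groups did not overlap (exact permutation p = 0.1). Over distinct joints it was 0.0822%, 0.0354% and 0.0884% against 0.191%, 2.67% and 2.14%, a ratio of means of 24.3, also without overlap. With shared joints left out it was 0.384%, 0.15% and 0.369% against 27.4%, 27.4% and 28.6%, a ratio of means of 92.2. The number of distinct joints in the Vκ region did not overlap between groups either, the nearest pair being 530 in a cycling library and 965 in arrested replicate 1. Many of the 965 were listed once, and how many stand for separate joints was not tested.

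Every other class on chromosome 6 lost share. The Jκ region, within 2 kb of the bait break, fell from 37.6% ± 1.44 to 16.8% ± 2.22 (SD, n = 3 each), a fall of 20.8 points. In number these were 4949, 3136 and 4234 junctions in cycling and 25251, 34935 and 33600 in arrested libraries, so the share fell while the count was higher. The rest of chromosome 6 here takes in the intronic RSS, Cκ and RS, which lie over 2 kb from the bait break. It held 26.5%, 25.9% and 16.9% of junctions in cycling cells and 3.05%, 2.84% and 2.96% in arrested cells. In number these were 3636, 2146 and 1834 against 5380, 5346 and 5690 junctions. The groups did not overlap in any of these shares (exact permutation p = 0.1 each). Little of this lay far from the locus. Over distinct joints, chromosome 6 outside the stretch from the Vκ region to 50 kb past the start of Cκ held little. Its share was at most 0.881% in cycling and 0.526% in arrested libraries.

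**Figure D1:**
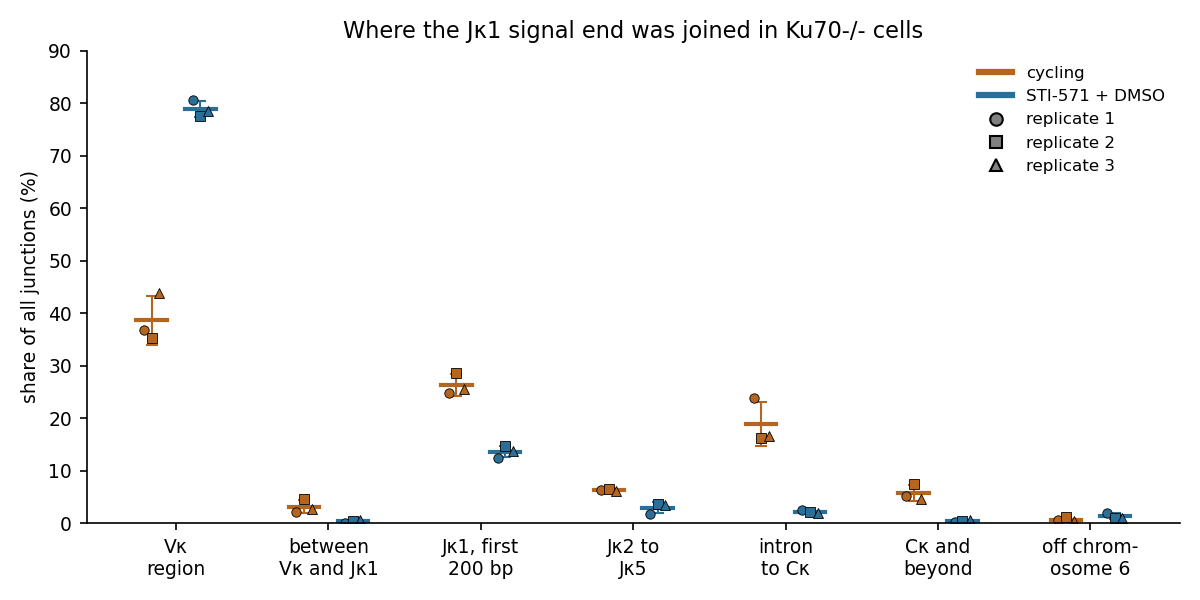
Share of all junctions (%) by region of the prey for each of the 6 libraries, cycling and arrested, with each point a library, the thick line the group mean and the error bar the SD. The Vκ share is 35.2% to 43.9% in cycling and 77.5% to 80.6% in arrested libraries, while every other stretch of chromosome 6 shown is lower in all 3 arrested libraries.

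The strand on which the bait met its Vκ prey reversed with arrest. From the Jκ1 signal end, a prey read on the plus strand closes an excision circle and a prey on the minus strand leaves an inversion. Cycling libraries had 1377, 1035 and 1611 plus-strand and 3679, 1886 and 3166 minus-strand Vκ junctions. Arrested libraries had 99758, 92112 and 96080 plus-strand and 42561, 53681 and 54718 minus-strand junctions. The circle share was 27.2%, 35.4% and 33.7% in cycling cells and 70.1%, 63.2% and 63.7% in arrested cells, so inversions were the larger class in all 3 cycling libraries and circles in all 3 arrested ones. The difference was 33.5 points (31.3 without arrested replicate 1; exact permutation p = 0.1). Over distinct joints the circle shares were 34.1%, 38.2% and 39.6% against 65.0%, 61.8% and 61.6%.

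Orientation of the Vκ segment and end of the prey together give 4 kinds of joint, and the 2 orientations changed in opposite directions. At deletional sites, where a signal joint (SE-SE) closes the circle and a hybrid joint leaves an inversion, cycling libraries had 258, 188 and 390 SE-SE and 510, 286 and 638 hybrid junctions. Arrested libraries had 38227, 34824 and 37866 SE-SE and 6433, 12010 and 14131 hybrid junctions there. The SE-SE to hybrid ratio at deletional sites was 0.506, 0.657 and 0.611 in cycling cells and 5.94, 2.90 and 2.68 in arrested cells, with means of 0.592 and 3.84 (2.79 without arrested replicate 1). The groups did not overlap. Over distinct joints the ratios were 0.646, 0.84 and 1.21 in cycling and 3.89, 2.46 and 2.44 in arrested libraries, so signal joints outnumbered hybrids in all 3 arrested libraries, and hybrids outnumbered signal joints in cycling replicates 1 and 2 but not in replicate 3. Over joints of 1 treatment only the ratio in cycling replicate 3 was 1.01.

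At inversional sites the signal joint leaves an inversion and the hybrid closes the circle. There the SE-SE to hybrid ratio was 3.28, 2.94 and 2.22 in cycling cells and 0.588, 0.722 and 0.693 in arrested cells, again with no overlap and with the larger value in cycling cells. Over joints of 1 treatment only these were 2.18, 2.02 and 0.922 against 0.574, 0.677 and 0.637. In both orientations the joint type that closes a circle took the larger share under arrest. Over both orientations the SE-SE to hybrid ratio was 2.17, 1.97 and 1.57 in cycling cells and 1.10, 1.11 and 1.09 in arrested cells, a log2 difference of -0.78 (exact permutation p = 0.1). This pooled ratio hides the opposite changes within it. Over joints found in 1 treatment only its log2 difference was -0.32 and the groups overlapped. Deletional sites took 19.1%, 23.9% and 25.5% of the junctions at sites in cycling cells and 31.5%, 32.9% and 35.1% in arrested cells, without overlap. Over joints of 1 treatment only that difference was 3.12 points and the groups overlapped.

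**Figure D2:**
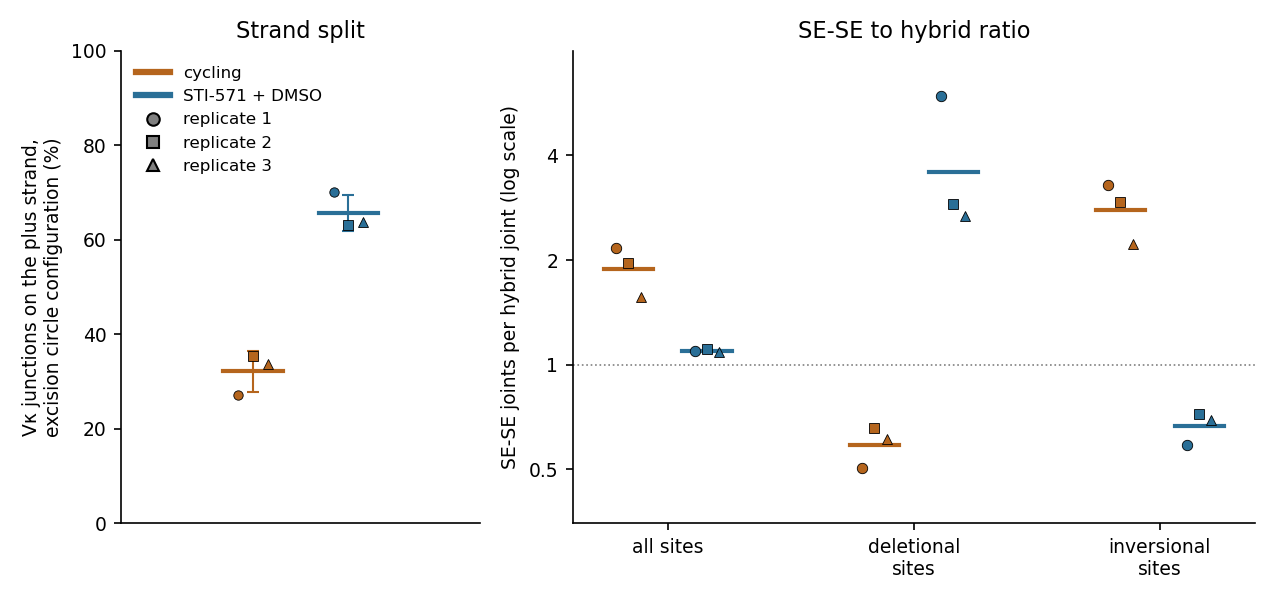
Left, the share of Vκ junctions (%) on the plus strand, the excision circle configuration, in each library, with group means and SD. Right, the SE-SE to hybrid ratio on a log axis at all, deletional and inversional sites, each point a library and each line the mean of the log values. Arrested libraries are higher at deletional sites (2.68 to 5.94 against 0.506 to 0.657) and lower at inversional sites (0.588 to 0.722 against 2.22 to 3.28).

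Along the locus, the Vκ segments farthest from Jκ1 gained share under arrest. The sub-TADs are folded domains of the Vκ region, numbered from the distal end, with bounds read from the study's map. sTAD1-2, the distal end, held 10.1%, 5.99% and 13.8% of the junctions at sites in cycling cells and 17.4%, 16.0% and 17.4% in arrested cells, and the groups did not overlap. sTAD4 fell from 44.0%, 31.3% and 36.9% to 23.6%, 27% and 25.9%, again with no overlap. Nearly all sites of sTAD1-2 are deletional and nearly all of sTAD4 inversional. Distance from Jκ1 and orientation can therefore not be told apart in these 2 changes. The groups overlapped in sTAD3 (10.7%, 18.6% and 7.28% against 21.0%, 17.1% and 16.6%, exact permutation p = 0.3). They also overlapped in sTAD5, next to Jκ1, with 35.2%, 44.2% and 42.1% against 37.9%, 39.9% and 40.1% (exact permutation p = 0.8).

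Single Vκ sites were compared as junctions per 1000 Vκ junctions at sites, on the log2 scale with the value of 1 junction added, which understates large changes. Of the 94 sites with 50 junctions or more on average, limma called 5 higher in arrested cells (5.32%) and 0 lower (0%) at a Benjamini-Hochberg adjusted threshold of 0.05, and 13 sites, in either direction, had an unadjusted p under that value. With voom weights limma called 0 in either direction. The filter was reached through the deeper arrested libraries: all 94 sites averaged 50 junctions or more there and 22 did in the cycling ones, so a site high in cycling cells alone could hardly enter, and the counts over these sites are descriptions. Without the filter limma called 10 higher and 26 lower, 25 of the latter with 0 junctions in every cycling library. With a filter of 1 junction per 1000 averaged over the 6 libraries, chosen after seeing the data, limma called 6 of 87 sites higher, among them the same 5, and 1 lower. That 1 was Igkv6-13, with 5, 0 and 22 junctions in cycling and 1, 0 and 8 in arrested libraries, where both replicates 2 were at 0. In the fit with the filter of 50 junctions, the groups did not overlap at 29 sites (30.9%), 22 higher and 7 lower.

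The 5 sites called higher had 0 to 6 junctions over all cycling libraries and passed the filter of 50 junctions through the arrested ones and so had to differ, and their values are given as a description with no test. Their signal sequences are given with the last 12 coding bases before the heptamer, which is in capitals, each 5′ to 3′ along the strand of its gene segment. Igkv6-15 is the only one of them with a heptamer other than CACAGTG.
Igkv9-124, chr6:67892040-67892079, minus strand: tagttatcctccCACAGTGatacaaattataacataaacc
Igkv1-122, chr6:67967471-67967510, plus strand: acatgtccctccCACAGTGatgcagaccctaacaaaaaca
Igkv12-38, chr6:69893152-69893191, minus strand: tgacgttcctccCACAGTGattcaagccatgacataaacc
Igkv8-24, chr6:70166824-70166863, minus strand: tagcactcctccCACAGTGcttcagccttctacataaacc
Igkv6-15, chr6:70356435-70356474, minus strand: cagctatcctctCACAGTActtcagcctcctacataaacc

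Igkv9-124 had 1, 0 and 0 junctions in the cycling libraries and 2249, 1264 and 1676 in the arrested ones. Igkv8-24 had 5, 1 and 0 against 3183, 2375 and 2489 junctions. Igkv6-15 had 1, 0 and 0 against 1600, 787 and 778 junctions, and Igkv1-122 had 2, 0 and 0 against 798, 854 and 1263. These counts take copies as separate, and the cycling libraries held only 411, 177 and 442 distinct joints over all sites. At that depth a count of 0 does not show that a site was unused. Igkv12-38 was listed at 0 in all 3 cycling libraries against 554, 334 and 778 junctions. Over distinct joints none of the 5 was called, and leaving out arrested replicate 1 raised the number of sites called higher to 10, while leaving out arrested replicate 2 or 3, or cycling replicate 1 or 3, left 0. Cycling libraries had no junction at 59, 75 and 61 of the 138 sites, and arrested ones at 48, 21 and 23.

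The sites used most in arrested cells were, by mean, Igkv1-135, Igkv12-44, Igkv1-88, Igkv16-104, Igkv4-80, Igkv4-50, Igkv12-46 and Igkv12-41, and none of these 8 was called. They were chosen for their use in arrested cells, so their values are given as a description with no test. The order rests in part on arrested replicate 1: over replicates 2 and 3 alone, Igkv1-135 and Igkv12-44 still led, while Igkv1-88, Igkv4-80 and Igkv12-41 ranked 11, 9 and 10. The signals of the most used site and of the 3 Igkv12 sites are shown for comparison, since the latter are alike from the heptamer onward and differ in a few coding bases. Reads in such near-identical segments are placed as the authors' alignment gave them.
Igkv1-135, chr6:67560491-67560530, plus strand: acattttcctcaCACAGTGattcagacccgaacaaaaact
Igkv12-46, chr6:69714489-69714528, minus strand: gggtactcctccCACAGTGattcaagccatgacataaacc
Igkv12-44, chr6:69764597-69764636, minus strand: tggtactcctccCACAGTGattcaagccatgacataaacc
Igkv12-41, chr6:69808386-69808425, minus strand: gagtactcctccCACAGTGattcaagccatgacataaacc

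Igkv1-135, the distal-most of them, received 25.8, 28.2 and 43.7 per 1000 in cycling libraries and 63.4, 49.2 and 51.6 in arrested ones, without overlap. Igkv16-104 received 7.95, 5.03 and 4.97 against 56.7, 25.8 and 28.6 (log2 2.49), also without overlap, from 32, 10 and 20 junctions in the cycling libraries, so it passed the filter of 50 through the arrested ones. Igkv12-44 overlapped between groups, at 53.1, 21.1 and 43.7 against 52.3, 46.0 and 42.6. Other heavily used sites scattered widely in the cycling libraries. Igkv12-46 received 26.1, 96.6 and 8.94 per 1000 there against 43.0, 27.9 and 28, and Igkv1-88 received 0.50, 20.1 and 0.99 against 65.9, 24.4 and 21.1. In cycling replicate 2, 180 of the Igkv12-46 junctions were copies of 1 hybrid joint. The most used site in cycling cells, named outside the rule for named sites after its values were seen, was Igkv6-32, with 306, 115 and 418 junctions from 21, 6 and 22 distinct joints. It ranked 9 in arrested cells, and 3 over arrested replicates 2 and 3 alone. Its usage was 76.0, 57.9 and 103.8 per 1000 in cycling and 21.8, 36.3 and 34.0 in arrested libraries (log2 -1.37). Over the 138 sites, Spearman's rho between libraries was 0.978 for arrested replicates 2 and 3, 0.871 and 0.861 between these and arrested replicate 1, 0.692 to 0.764 among cycling libraries, and 0.618 to 0.769 across treatments. The points share the library depths and the site definitions, and these values are descriptions.

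**Figure D3:**
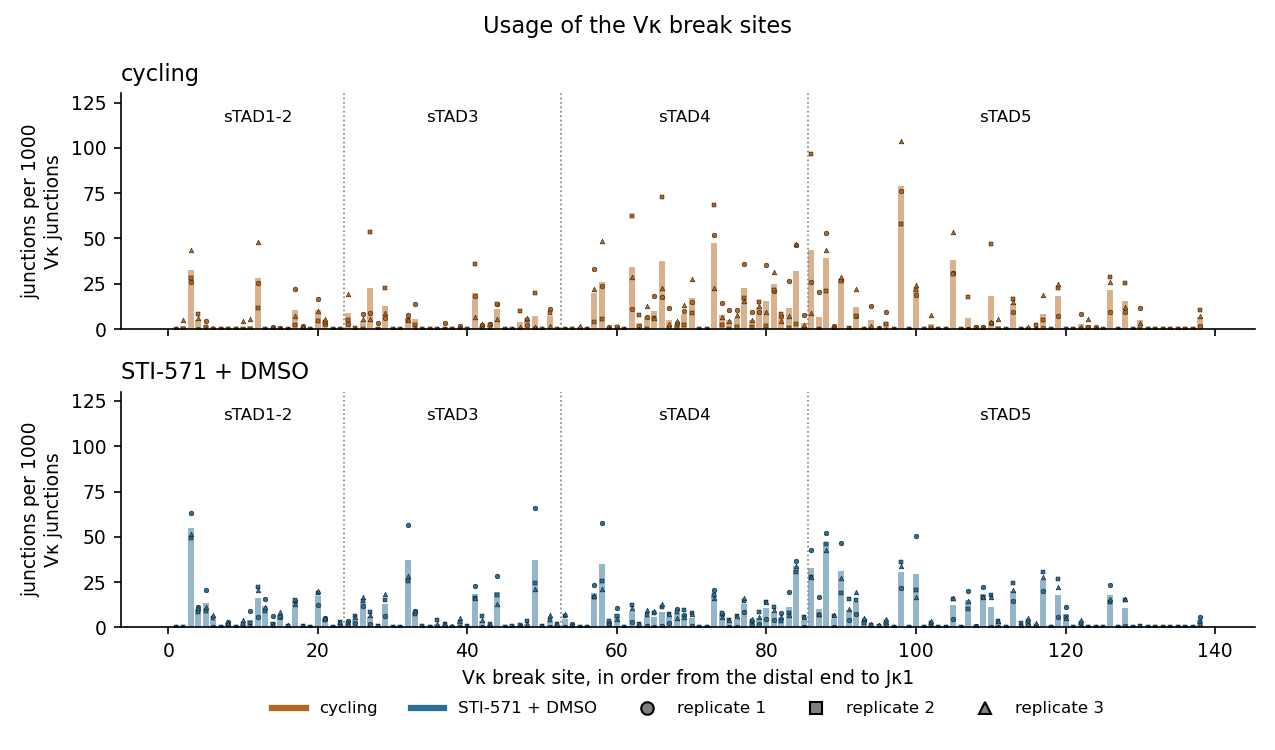
Usage of each of the 138 Vκ sites, in junctions per 1000 at sites, in order along the locus from the distal end to Jκ1, for cycling cells above and arrested cells (STI-571 + DMSO) below. Bars are means of 3 libraries and points the libraries. Cycling libraries scatter more at single sites, and the tallest bar is Igkv6-32 in cycling (57.9 to 103.8) and Igkv1-135 in arrested cells (49.2 to 63.4).

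In cycling cells a sizeable part of the Vκ junctions lay away from the 138 sites. These sites were taken from the 9 STI-571-treated WT libraries named above, so a cut used in cycling cells alone would count as away, and its part in this result was not tested. Junctions over 200 bp from a site were 20.4%, 32% and 15.7% of the Vκ junctions in cycling libraries and 0.278%, 2.24% and 1.71% in arrested libraries. The groups were 22.7% ± 8.37 and 1.41% ± 1.01 (SD, n = 3 each), with no overlap, a ratio of 16.1 and a difference of -21.3 points (-20.7 without arrested replicate 1; exact permutation p = 0.1). Over distinct joints the shares were 20.3%, 28.9% and 16.6% against 1.14%, 2.72% and 2.55%, a ratio of means of 10.3, again without overlap. In cycling cells most of these lay within 5 kb of a site, with 19.9%, 31.9% and 13.9% of Vκ junctions at 200 to 5000 bp in cycling and 0.273%, 1.49% and 1.39% in arrested libraries. Counted once per distinct joint these were 19.4%, 28.5% and 15.7% against 0.622%, 1.71% and 1.82%. Of the listed junctions at that distance, 90.6%, 92.2% and 81.2% in cycling and 99.7%, 82% and 85.3% in arrested libraries ran in the direction in which bases are lost from the nearest cut end (87.0%, 95.8% and 83.1% against 83.3%, 81.3% and 78% over distinct joints). A direct joint made up 10.2%, 1.76% and 3.07% of the distant joints in cycling libraries, against 16.2%, 29.2% and 32.2% in arrested ones, with no overlap between groups, in a comparison that was not tested. Insertions were 25.1%, 29.8% and 24.2% of them in cycling and 1.01%, 8.88% and 13.3% in arrested cells. How copies of few joints weigh on the direct and insertion shares of distant joints was not tested.

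Close to the cut the groups overlapped over all listed junctions. Among junctions within 100 bp, 63.6%, 55.9% and 50.6% lay within 10 bp of the break in cycling libraries and 56.2%, 52.0% and 51.5% in arrested libraries (exact permutation p = 0.7). Among joints of 1 treatment only, these were 46.6%, 32.4% and 26.6% against 54.6%, 50.8% and 50.3%, higher in arrested cells without overlap. The median distance of signal end preys from the break was 4, 9 and 8 bp against 8, 9 and 9 bp, and of coding end preys 12, 8 and 17 bp against 10, 13 and 13 bp. The bait end was trimmed in both groups. Of the junctions at sites, 90.9%, 86.8% and 92.6% in cycling and 88.6%, 87.8% and 88.5% in arrested libraries had lost at least 1 bait base (exact permutation p = 0.4), with median losses of 8, 7 and 11 against 10 bases in all 3 arrested libraries. The whole heptamer of the bait was lost in 56.6%, 51.7% and 64.1% of cycling and 62.6%, 65.5% and 65.6% of arrested junctions at sites (exact permutation p = 0.2). With shared joints left out these were 77.6%, 68.5% and 81.1% against 64.2%, 66.5% and 67.1%, the opposite order and without overlap. Signal joints with no base lost on either side were 7.97%, 9.95% and 7.89% against 9.93%, 3.35% and 3.17% of the signal end preys within 100 bp. These overlapped only through arrested replicate 1. Over distinct joints they were 4.12%, 3.64% and 3.33% against 0.96%, 1.05% and 1.00%, without overlap. With shared joints left out they were 0%, 0% and 2.36% against 5.37%, 2.22% and 2.12%, with overlap and with the higher mean in arrested cells. Signal end preys within 10 bp of the break were also a larger share in cycling cells over distinct joints, at 61.7%, 56.4% and 60.4% against 53.9%, 49.7% and 50.1%. Over joints of 1 treatment only, those shares were 52.7%, 38.6% and 40% against 57.7%, 58.5% and 57.0%, the opposite order. That setting takes out mainly cycling joints, and its part in the turned orders of this paragraph was not tested.

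**Figure D4:**
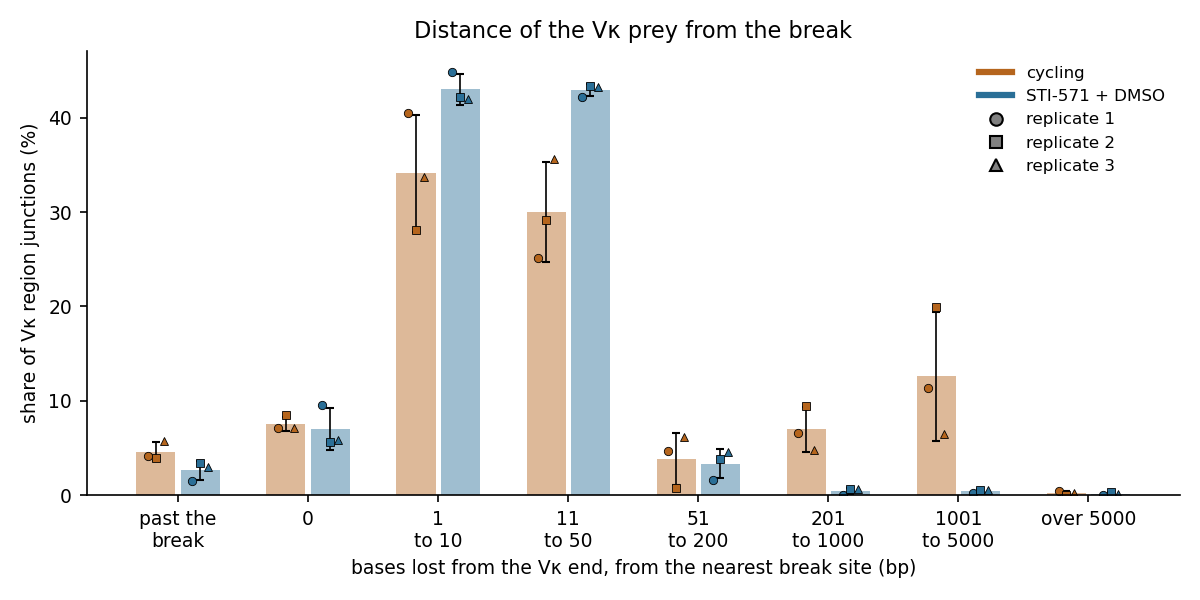
Share of Vκ junctions (%) by distance of the prey from the nearest Vκ break site, in bins of bases lost (bp), with bars for the group means, error bars for the SD and a point per library. The largest bins, 1 to 10 and 11 to 50 bp, hold most junctions in both groups, and the groups part beyond 200 bp, where cycling libraries hold 15.7% to 32% of Vκ junctions in all and arrested libraries 0.278% to 2.24%.

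Joint structure was read from the overlap or gap of the bait and prey alignments on the read. Bases that fit both ends are microhomology (MH), a gap is an insertion, and a joint with neither is direct. Direct joints were the commonest class in both groups, at 49.7%, 61.4% and 52.0% in cycling and 60.5%, 56.6% and 57.5% in arrested libraries (exact permutation p = 0.4). Joints with 1 bp of MH were 14.3%, 13.8% and 12.7% against 16.7%, 21.5% and 20.9%, without overlap. Longer MH was 31.6%, 22.5% and 31.0% against 22.2%, 20.0% and 20.3%, also without overlap. Insertions were 4.42%, 2.32% and 4.22% against 0.50%, 1.96% and 1.37%. Both results depend on copies, the 1-bp MH result through arrested replicate 1 alone. Over distinct joints the insertion shares were 10.7%, 5.65% and 10.2% in cycling and 36.8%, 14.0% and 14.0% in arrested libraries, the opposite direction. The 1-bp MH shares were then 16.8%, 16.4% and 14.5% against 10.1%, 18.2% and 17.5%, a difference of -0.619 points with overlap. Arrested replicates 2 and 3 still lay above every cycling library. Over joints of 1 treatment only, the groups overlapped for 1-bp and for longer MH.

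MH of 5 bp separated the groups over all listed and over distinct joints, but not over joints of 1 treatment only. Overlaps of 5 bp or more made up 12.4%, 9.51% and 11.3% of cycling and 3.47%, 3.57% and 3.40% of arrested junctions at sites, 11.1% ± 1.46 against 3.48% ± 0.0834 (SD, n = 3 each), a difference of -7.60 points and a ratio of 3.18. Over distinct joints it was 10.7%, 6.78% and 9.05% against 5.66%, 3.57% and 3.96%, also without overlap, but over joints of 1 treatment only the difference was -4.04 points and the groups overlapped. Overlaps of exactly 5 bp gave most of the difference, with 6.90%, 7.95% and 8.30% against 1.13%, 1.17% and 1.12%. Over distinct joints exactly 5 bp was 4.87%, 3.39% and 4.98% against 1.47%, 1.37% and 1.31%. In the cycling libraries 4 bp then held 5.11%, 6.78% and 3.39%, so 5 bp exceeded 4 bp in replicate 3 alone. With shared joints left out, exactly 5 bp was 7.96%, 0% and 5.04% against 1.17%, 1.06% and 1.05%, and cycling replicate 2 lay below every arrested library. Longer overlaps were 5.49%, 1.56% and 3.03% against 2.34%, 2.40% and 2.28%, and these overlapped between groups. In the cycling libraries the 5-bp overlaps came from 20, 6 and 22 distinct joints. A single sequence, tacag, spans the border of nonamer and spacer at Jκ1 and lies in the signal window of 36 of the 138 sites (26.1%). In cycling libraries tacag supplied 33, 104 and 114 of the 278, 158 and 334 junctions with a 5-bp overlap (11.9%, 65.8% and 34.1%). These came from 1, 2 and 4 distinct joints, and in cycling replicate 1 another sequence, cagac, was commonest. In arrested libraries tacag supplied 1263, 51 and 76 of the 1607, 1664 and 1660 such junctions (78.6%, 3.06% and 4.58%). These were from 3, 8 and 11 distinct joints, and in arrested replicates 2 and 3 other sequences, tgtgg and tacta, were commonest. Of the 1263, 1261 were at Igkv16-104, whose own signal window does not hold tacag.

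The joints can be read directly. The first is the one listed in all 6 libraries, at an unannotated site, with 33, 6 and 78 copies in cycling and 1, 8 and 16 in arrested cells; the second is at Igkv4-50, with 52, 0 and 2 against 0, 54 and 73 copies. Both are SE-SE joints. The bait reads from the left and the shared bases are in capitals.
unannotated inversional site, 26 bait bases lost: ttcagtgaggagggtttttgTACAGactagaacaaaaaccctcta
Igkv4-50, 16 bait bases lost: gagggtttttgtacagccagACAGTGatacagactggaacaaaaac
The commonest joint of a cycling and of each arrested library is shown next, since these joints show how the copies are spread. The Igkv6-32 joint is direct, with 92, 26 and 30 copies in cycling and 0, 100 and 71 in arrested cells. The Igkv16-104 joint, with 1 shared base, had 5106 copies in arrested replicate 1, 54 in replicate 2 and 0 elsewhere. The Igkv6-17 joint, named for its copies alone, is direct and keeps every bait base, with 0, 271 and 64 copies in arrested cells, and the direct Igkv1-135 joint had 0, 66 and 313. The last 2 were not listed in cycling cells.
Igkv6-32, 2 bait bases lost: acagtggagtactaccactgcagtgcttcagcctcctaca
Igkv16-104, 13 bait bases lost: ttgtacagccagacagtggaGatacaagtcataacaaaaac
Igkv6-17, 0 bait bases lost: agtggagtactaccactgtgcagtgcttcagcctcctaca
Igkv1-135, 10 bait bases lost: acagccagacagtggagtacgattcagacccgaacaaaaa

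**Figure D5:**
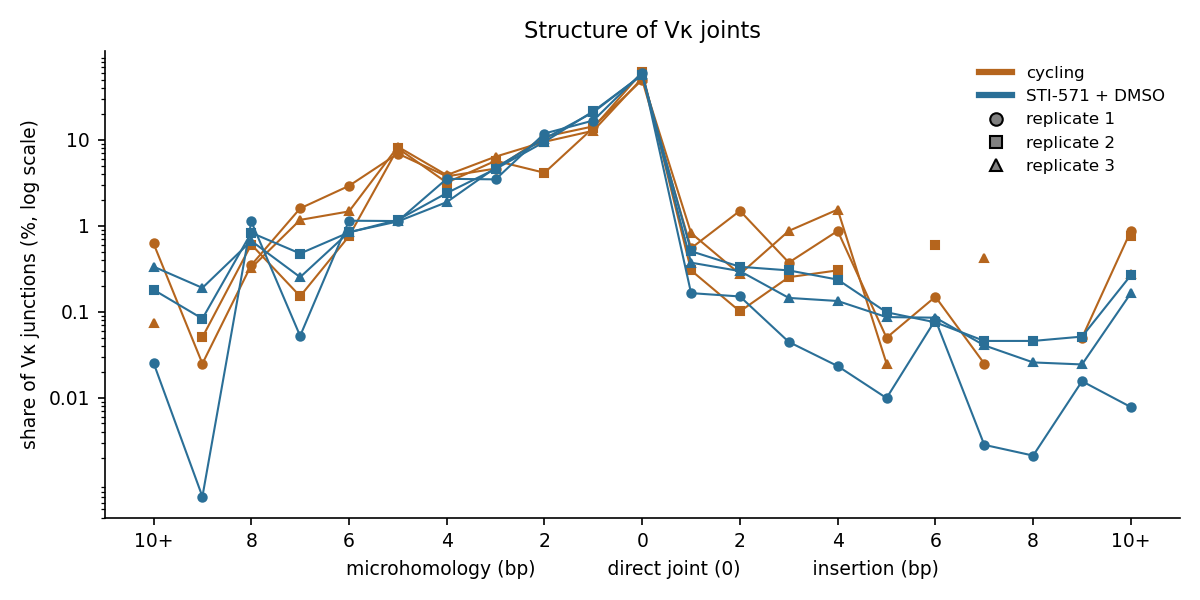
Share of Vκ junctions at sites (%) by overlap or gap of bait and prey, with microhomology to the left of 0 bp, direct joints at 0 and insertions to the right, on a log axis, with a line and marker for each library and lengths at 0% not drawn. Over all listed junctions, copies included, cycling libraries show a second peak at 5 bp of overlap (6.90% to 8.30% against 1.12% to 1.17%), which over distinct joints exceeds the 4-bp share in cycling replicate 3 alone, and direct joints are the highest class in every library.

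Around Jκ1 the bait also met its own partner and the segments downstream. Junctions in the first 200 bp downstream of the Jκ1 break were 24.7%, 28.6% and 25.6% of all junctions in cycling cells and 12.5%, 14.7% and 13.8% in arrested cells, with no overlap. Over joints of 1 treatment only they were 8.27%, 10.9% and 8.80% against 5.28%, 8.12% and 7.73%, a smaller difference without overlap. Over all listed junctions, insertions were more frequent in the cycling rejoins at Jκ1, at 13.1%, 18.6% and 16.0% against 1.86%, 4.09% and 5.63%. Direct rejoins were 30.9%, 27.9% and 28.1% against 36.5%, 49.4% and 50.9%. Bait and prey together had lost a median of 31, 27 and 32 bases in cycling and 14, 28 and 28 in arrested libraries, so arrested replicate 1 lay below the other 5. Rejoin structure was not tested.

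At Jκ2 to Jκ5 the kind of prey end differed. These segments received 6.37%, 6.57% and 6.12% of junctions in cycling and 1.83%, 3.69% and 3.43% in arrested cells. Within 100 bp of their breaks, the signal end was the prey in 13.9%, 5.42% and 15.7% of the Jκ2 to Jκ5 junctions in cycling libraries and 47.8%, 51.9% and 50.3% in arrested libraries. Arrested libraries used both ends about equally and cycling libraries mainly the coding end, without overlap (exact permutation p = 0.1), and over distinct joints the signal end shares were 11.1%, 13.3% and 14.3% against 40.0%, 52.2% and 50.4%. At these segments the coding end is read on the plus strand, as is the signal end at the intronic RSS. Over the whole stretch beyond 200 bp from the Jκ1 break, 93.5%, 96.9% and 90.6% of cycling junctions were on the plus strand. In arrested libraries these were 60.1%, 61.9% and 63.4%, each counted to 50 kb from the start of Cκ. Prey end and strand can therefore not be told apart here. Jκ2 had 0, 0 and 17 signal and 95, 13 and 53 coding junctions in cycling cells, against 95, 1463 and 1415 signal and 680, 1237 and 1104 coding junctions in arrested cells. Jκ4 had 85, 20 and 62 signal and 258, 219 and 258 coding junctions, against 1279, 1057 and 1213 signal and 797, 1363 and 1390 coding ones. Jκ5 had 2, 0 and 8 signal junctions against 33, 879 and 512, and Jκ3 had 0, 0 and 0 against 0, 32 and 5.

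The stretch from Jκ5 to Cκ took a larger share of the junctions in cycling cells. It held 23.8%, 16.3% and 16.6% of all junctions there and 2.53%, 2.12% and 2.00% in arrested cells, an 8.5-fold difference of means without overlap. In number these were 3261, 1350 and 1802 junctions in cycling and 4473, 3984 and 3846 in arrested libraries, so the count was higher under arrest. Part of this lay within 100 bp of the intronic RSS, whose position was taken from arrested replicates 2 and 3 after their values were seen. The counts of 1731, 744 and 653 signal end junctions exceeded those of 26, 13 and 29 coding end junctions there in the cycling libraries. In the arrested libraries there were 890, 1961 and 1960 signal and 1587, 757 and 858 coding junctions. Together these made 12.8%, 9.13% and 6.27% of all junctions in cycling and 1.40%, 1.45% and 1.47% in arrested cells. RS had no junction in the cycling libraries, and 219, 25 and 22 signal with 1, 183 and 354 coding junctions in the arrested ones. These came from 4, 9 and 8 signal and 1, 19 and 19 coding distinct joints. The cycling libraries held only 1135, 748 and 1153 distinct joints in all, and a difference at RS was not tested. Cκ with the 50 kb from its start held 5.11%, 7.42% and 4.61% against 0.198%, 0.471% and 0.539%. The gap between the Vκ region and Jκ1 held 2.08%, 4.56% and 2.78% against 0.0034%, 0.40% and 0.604%, where arrested replicate 1 had 6 junctions.

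Junctions outside chromosome 6 were more numerous in all 3 arrested libraries, and their share of all junctions overlapped between groups. There were 85, 91 and 39 in cycling and 3563, 1978 and 2034 in arrested libraries, a log2 difference of 5.18 (36.2-fold; 4.90 without arrested replicate 1; exact permutation p = 0.1). As a share of all junctions they were 0.619%, 1.10% and 0.358% against 2.02%, 1.05% and 1.06%, with means of 0.692% and 1.38% and an exact permutation p of 0.3. Per 1000 Vκ junctions the log2 difference was -0.32, the opposite direction. Distinct joints were 21, 34 and 8 against 24, 250 and 230, and here the groups overlapped.

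Antigen receptor loci were among the preys outside chromosome 6 in arrested cells. Igl, the other light chain locus and also cut by RAG1/2, lies on chromosome 16 and received 41, 392 and 389 junctions in the arrested libraries from 2, 48 and 46 distinct joints, and 0 in all cycling libraries. The commonest position there, chr16:19085099, lies 11 bp outside Iglv1. Tcra/Tcrd received 0, 18 and 26 junctions, Igh 0, 5 and 0, and Tcrg none. All 4 loci together made up 1.15%, 21.0% and 20.4% of the off-chromosome-6 junctions in arrested cells. In cycling cells they were listed at 0, which allows shares of up to 3.53%, 3.30% and 7.69% of the junctions outside chromosome 6, limits that take copies as separate counts. Over distinct joints the 4 loci made up 8.33%, 20.8% and 20.9% in arrested cells, and 0 of 21, 34 and 8 in cycling cells allows up to 14.3%, 8.82% and 37.5%. Arrested replicate 1 lay below all 3 of these limits, and replicates 2 and 3 below that of cycling replicate 3 alone, so at this depth a difference was not detectable against every cycling library.

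The 2 windows of 1 Mb with the most junctions came from arrested replicate 1 alone. On chromosome 11, 2125 junctions from 5 distinct joints lay in 1 such window, whose commonest position, chr11:22719682, is in an intron of Gm12057 and 15062 bp from Commd1. On chromosome 14, 1277 junctions from 5 distinct joints lay in 1 window of 1 Mb, whose commonest position, chr14:103117291, is outside any gene. The 2 commonest joints made up 94.8% of that library's junctions outside chromosome 6, against 10.3% and 9.54% in the other arrested libraries and 43.5%, 49.5% and 74.4% in the cycling ones. The window whose commonest position, chr10:19790882, lies in an intron of Map3k5 received 0, 96 and 27 junctions, from 0, 1 and 1 distinct joints. Another, whose commonest position, chr11:69188640, lies 5712 bp from Chd3, received 0, 45 and 75 from 0, 1 and 2 distinct joints. Cycling libraries had 0 in all 5 of these windows.

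The same treatment and bait in WT vAbl cells, 3 cycling and 3 arrested libraries, lets the change be set beside that in cells with Ku70. Loss of Ku70 cannot be told apart from other differences between the lines. The difference of the 2 changes was set against exact permutation of treatment within genotype, over 28 measures. Permuting in this way supposes that treatment had no effect in both lines, and not that its effects were equal. The smallest p, 0.005, can be reached only where the 2 changes have opposite signs. Whether changes of the same sign differ in size was thus not tested. The difference passed an adjusted p of 0.05 in 5 of the 28 (17.9%), and in each of these 5 the changes had opposite signs. The share of Vκ junctions over 200 bp from a site changed by -21.3 points in Ku70-/- cells and 1.03 points in WT cells (from 0.0988% to 1.13%), a difference of -22.3 (adjusted p = 0.028, exact permutation). Over distinct joints the WT share was 1.41%, 1.42% and 0% in cycling and 11.8%, 9.48% and 10.9% in arrested libraries, means of 0.944% and 10.7%, so WT arrested libraries then lay above the Ku70-/- arrested ones, and the difference of changes was -29.6 points. The WT shares are over sites that were placed from STI-571-treated WT libraries, the 3 arrested ones here among them. That for 200 to 5000 bp was -20.8 against 0.78 points, and the share between the Vκ region and Jκ1 was -2.80 against 0.642 points, each with adjusted p = 0.028 by exact permutation. The other 2 were 1-bp MH (6.09 against -2.18 points) and insertions (-2.38 against 0.83 points), at the same adjusted p, and both reversed over distinct joints. The circle share rose by 33.5 points in Ku70-/- cells and by 36.0 in WT cells (from 13.4% to 49.4%), and the difference of -2.51 points (1.06 over distinct joints) did not pass (exact permutation p = 0.785). This test assumes no change in either genotype, and a large change in both raises its p. V-J efficiency was higher under arrest by 28.2 points in Ku70-/- and 61.7 points in WT cells, a difference of -33.5 (exact permutation p = 0.145). The order turned over distinct joints, with means from 0.0687% to 1.67% in Ku70-/- and from 0.0551% to 0.385% in WT cells, a difference of 1.27 points (exact permutation p = 0.385).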

How the data were processed

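HTGTS-JoinT-seq junctions from the Jκ1 signal end were taken from 6 Ku70-/- vAbl libraries. The authors demultiplexed the read pairs with fastq-multx, trimmed adapters with SeqPrep, sampled 500000 read pairs per library by Seqtk, ran TranslocWrapper on mm9 with duplicates kept, and added bait-region junctions with their own script. The labels name Bowtie2, and versions of these programs are not given in the sources used here. The deposited lists give each junction's prey position and strand, bait end and alignment bounds on the read. Counts, shares, ratios and log2 values were computed here with Python 3.11.15, pandas 2.3.3, numpy 2.4.6, scipy 1.17.1, R 4.3.3 and limma 3.58.1, and no read was mapped again.

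Vκ sites were positions with 30 or more junctions in 9 WT signal end libraries given STI-571 (3 with DMSO, 3 with L67, 3 with L82-G17), with no higher position within 50 bp and CAC next to the break, allowing a shift of 1 base. Of the 138, 42 lay in no annotated gene, and the other 96 fell in 95 of 102 Vκ genes of GENCODE on NCBIM37. Overlaps and gaps up to 20 bp were classed. Groups follow the labels, which give no replicate numbers, so nothing was paired. Sites named are the largest rises and falls past the limma threshold with no overlap, up to 6 each way, and the 8 most used in arrested cells. Outside the locus they are the 5 windows with most junctions and every antigen receptor locus. On simulated counts the site fit recovered most very large changes and few smaller ones, and with very large changes it also called some unchanged sites. Alternatives were other windows, filters, scalings and denominators, distinct joints, joints of 1 treatment, and each library left out. Measures, lists and alternatives were chosen with earlier results of these data known.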

Additional observations from a re-analysis of the deposited data

Results flagged for a closer look

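In 5 measures the change with arrest had opposite signs in Ku70-/- and WT cells, in 3 libraries per group. The difference of changes had an adjusted p of 0.028 by exact permutation within genotype. That test supposes no effect of treatment in both lines, and its smallest p can be reached only with opposite signs. Whether the changes differ in any other way was not tested. The difference of changes (Ku70-/- minus WT) was -22.3 points for Vκ junctions over 200 bp from a site and -21.6 points for the part of them at 200 to 5000 bp. It was -3.45 points for junctions between the Vκ region and Jκ1. These 3 kept their sign over distinct joints, at -29.6, -26.5 and -3.27 points. It was 8.27 points for joints with 1 bp of MH and -3.21 points for insertions, and over distinct joints these became -6.98 and 10.6 points. Depth in copies per joint differed between the libraries compared, and its part in these differences was not tested.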

How the results depend on the processing

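Omissions apart, 109 alternatives to the 28 measures compared by permutation were run. Of these 86 kept direction and call, 8 lost the call, 2 gained one and 13 changed sign. Of 169 that left out 1 library or, in 1 case, the antigen receptor loci, 7 gained a call, 2 changed sign and none lost one. Leaving out a library cannot lose a call, since groups that do not overlap cannot come to overlap. The cause of the changes below was not tested. Distinct joints gave an off-chromosome-6 share difference of -0.706 points, an off-chromosome-6 log2 difference of 2.64, and differences of -0.619 points for 1-bp MH, 12.8 for insertions and 0.335 for sTAD5. That off-chromosome-6 share was 1.85%, 4.55% and 0.694% against 1.80%, 1.49% and 1.68%, so its sign rests on cycling replicate 2. Arrested replicate 1 had the lowest 1-bp MH share (10.1%) and the highest insertion share of all libraries. The sign for 1-bp MH and the size for insertions rest on it. Counting joints apart by the far end of the prey as well gave -0.0855 points off chromosome 6, 2.31 for 1-bp MH, 7.36 for insertions and 0.610 for sTAD5. Joints of 1 treatment only gave -0.168 points off chromosome 6, a log2 SE-SE to hybrid difference of -0.32, and in points 16.7 within 10 bp, 10.4 for direct joints, 0.275 for 1-bp MH, -5.41 for longer MH, -4.04 for MH of 5 bp or more, 4.70 for sTAD5, 3.12 for deletional sites and -9.79 for a lost heptamer. Other settings gave -0.32 (log2) for off-chromosome-6 junctions per 1000 Vκ junctions, 14.3 points for direct joints over the whole Vκ region, -1.90 for insertions within 10 bp of gap, and 6.69 for baits trimmed by over 10 bases. Leaving out 1 library gave 0.364 to 0.888 points off chromosome 6, -6.48 to 0.0131 within 10 bp, 1.47 to 7.33 for direct joints, 3.62 to 9.26 for sTAD3, -3.81 to 0.691 for sTAD5, -3.44 to -0.560 for trimmed baits and 4.15 to 10.4 for a lost heptamer.

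The difference from the WT change over distinct joints was 1.27 for V-J efficiency (-33.5 over all junctions), and in points -17.9 for other chromosome 6, -2.13 off chromosome 6, -6.98 for 1-bp MH, 10.6 for insertions, 0.602 for sTAD1-2, -0.629 for sTAD4, 1.06 for the circle share, 0.332 for Jκ1, -2.49 for Jκ2 to Jκ5, -5.54 for MH of 5 bp or more and -0.843 for a lost heptamer. Sites called higher by limma numbered 1 with a filter of 10 junctions, 10 with none, and 0 with voom, with scaling to the median site or over distinct joints, and 0 to 10 with a library left out (9 without cycling replicate 2). Sites called lower numbered 26 without a filter and 1 with a filter of 1 junction per 1000 averaged over the libraries, chosen after seeing the data. Most-used sites changed sign: Igkv4-80 (log2 -0.23 over distinct joints, -0.12 to 1.39 with a library left out), Igkv4-50 (-0.48 to 1.40 with one left out), Igkv12-46 (-0.15 by the median site, -0.65 to 1.05 with one left out), Igkv12-44 (-0.072 over distinct joints, -0.049 to 0.60 with one left out) and Igkv12-41 (-0.26 by the median site, -0.28 over distinct joints, -0.29 to 0.37 with one left out). Few distinct joints limit the cycling libraries and arrested replicate 1. No paired analysis was possible because the labels give no replicate numbers.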
